A study of Mus musculus with 3 samples.

Results

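The epidermal growth factor (EGF) receptor family and its ligands were described in the developing mouse ureter, a tube of urothelium wrapped in smooth muscle that drains the kidney. The members were 10 genes listed by name, with earlier results of these data known. They were the receptor genes Egfr, Erbb2, Erbb3 and Erbb4 and the ligand genes Nrg1, Egf, Tgfa, Hbegf, Areg and Btc. Of these 10 genes, 9 had a probe set annotated with that symbol alone, among 18194 genes measured in this way, and Areg was not analysed here. All 3 samples belonged to 1 group, whole ureters of wild-type FVB/N embryos at embryonic day 15 (Theiler stage 23) with the sex unknown, microdissected between pelvis and bladder and not pooled. They are named replicates 3, 8 and 9. Nothing in the labels ties them to separate embryos or litters, and part of their spread may be technical. RNA was amplified in 2 rounds and hybridised to Affymetrix Mouse Genome 430 2.0 arrays, on which 1 gene is often measured by several probe sets. With 1 group there was no contrast to test, and the questions were which members gave signal above background and how far the samples differed.

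EGF family ligands are made as membrane-anchored precursors that are cut by metalloproteases and bind receptors on the same or on neighbouring cells. Binding makes the receptors pair and phosphorylate one another, which starts the RAS-MAPK and PI3K-AKT cascades. EGFR binds EGF, TGF-alpha, amphiregulin, betacellulin and heparin-binding EGF. ERBB3 and ERBB4 bind neuregulins, ERBB2 has no known ligand of its own and serves as a partner, and ERBB3 has a weak kinase that relies on its partner. In urothelium the family is known for its part in epithelial growth and repair, and neuregulin with ERBB2 and ERBB3 is known for the survival of Schwann cell precursors along nerves.

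A gene was called above background when its signal exceeded, on every array, the 95th percentile of 55 reference genes that belong to organs elsewhere in the body (retina, testis, lens and others). That level was 394, 401 and 597 in replicates 3, 8 and 9, in the arbitrary linear units of the deposited signals. An earlier choice of genes from the same organs gave a lower level on each array. That choice was not available here, and no calls were made with it. The calls of Btc and Hbegf depend on the level set, as the 90th percentile below shows. By this call 9443 genes (51.9% of those measured) were above background. Of the 9 measured members 3 were, all of them receptor genes: Erbb3, Egfr and Erbb2. The receptor gene Erbb4 was below background on every array. None of the 5 measured ligand genes was above background on all 3 arrays, although each of them exceeded it on 1 or 2 arrays. With the 90th percentile of the reference genes as background, Btc and Hbegf were added and 5 members were above it, as were 58.1% of all genes. A level is that of the gene's brightest probe set, and levels of different genes are not ranked here because probe sets differ in brightness for reasons other than transcript amount. In whole tissue, fewer cells of a type and less RNA per cell cannot be told apart.

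**Figure D1:**
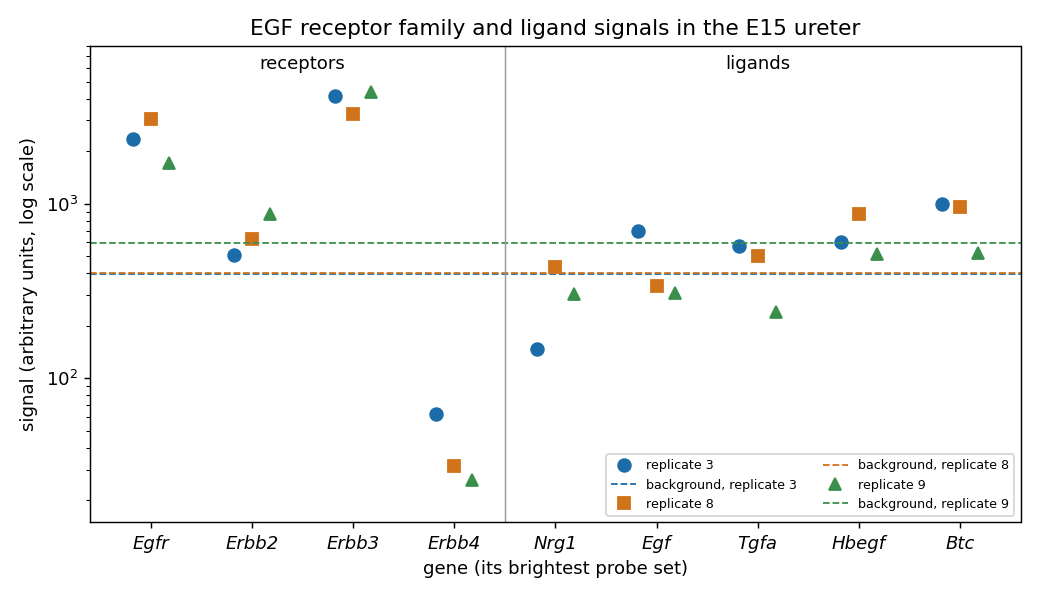
Signal of the brightest probe set of each measured member (log axis, arbitrary units) in replicates 3, 8 and 9 (circles, squares and triangles), with the background of each array as a dashed line of the same colour. Erbb3, Egfr and Erbb2 lie above the line of their array in all 3 replicates, Erbb4 lies below it in all 3, and the ligands lie on both sides.

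Erbb3, the receptor gene for neuregulins with the weak kinase, had signals of 4116, 3251 and 4386 in replicates 3, 8 and 9. Its mean was 3918 ± 593 (SD, n = 3), and it lay between 7.35 and 10.4 times the background of the same array. Replicate 8 was lowest and the other two were close to each other, so that the range on the log2 scale was 0.43, against a median range of 0.53 over all genes above background. The other Erbb3 probe set gave 41.5, 69.2 and 80.0, below background on every array, so the call rests on 1 of 2 probe sets.

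Markers of Schwann cell precursors and neural crest, cells in which Erbb3 is known to act, were mostly not above background. Of 7 measured genes of that list 2 were above background, Fabp7 and Gfra3. The defining factor gene Sox10 had signals of 307, 206 and 632 and exceeded background in replicate 9 alone. The summed signal of the list was 2976, 2874 and 6270 in replicates 3, 8 and 9, with Fabp7 alone at 1121, 1533 and 3363. Erbb3 was also highest in replicate 9, but close to it in replicate 3. Its ratio to background was lowest in replicate 9 (7.35). In the urothelial list 7 of 10 genes were above background, among them Krt5, which is also in the epidermal list. Of the uroplakin genes, Upk1b was above background, with signals of 2544, 1816 and 938 in replicates 3, 8 and 9. It had 2 of 4 probe sets above background. Upk1a, Upk2 and Upk3a were not above background on all 3 arrays, with mean signals of 269, 99.2 and 251. The summed signal of the urothelial list was 18227, 27272 and 17994. The high sum in replicate 8 came from Epcam and Foxa1, and the other 8 genes summed to 11991, 11776 and 10514. Genes of the hepatocyte list (7 of 7 measured) and of the epidermal list (5 of 8) were above background as well. The part of any of these cell types in the Erbb3 signal was not tested.

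Egfr, which encodes the receptor for EGF and TGF-alpha, was measured by 7 probe sets, of which 3 were above background. The brightest, 1435888_at, gave 2337, 3044 and 1700 in replicates 3, 8 and 9, a mean of 2360 ± 672 (SD, n = 3) and between 2.85 and 7.60 times background. Probe set 1424932_at gave 1250, 1355 and 1417, and 1460420_a_at gave 896, 615 and 719. These 3 probe sets placed their highest value in different replicates (8, 9 and 3), and kept them there after quantile normalization and after centring each array. They therefore give no common order of the samples for Egfr. The range of log2 values was 0.84 for the brightest of the 3 and 0.18 for 1424932_at. The other 4 probe sets had mean signals from 61.4 to 249, below background on every array. With the mean of all 7 probe sets in place of the brightest, Egfr was not above background (lowest log2 ratio to background -0.68).

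Erbb2, the gene of the ligandless partner receptor, had 1 probe set with signals of 507, 631 and 877, a mean of 672 ± 188 (SD, n = 3). It was above background by a small factor on every array, from 1.29 to 1.57 times. Replicate 9 had the highest signal and replicate 3 the lowest, and the range of 0.79 (log2) was larger than the median of all genes above background. Under the 99th percentile of the reference genes Erbb2 was below background.

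Erbb4, the gene of the other neuregulin receptor with an active kinase, had 1 probe set with signals of 62.3, 31.4 and 26.2. These were between 0.0438 and 0.158 times background. At this brightness the order of the samples carries no information.

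The promoter windows of Egfr, Erbb2 and Erbb4 are shown because these receptors fell on different sides of background. They run from 250 bases before to 50 bases after the annotated start in RefSeq on GRCm38.p6, as part of a table that holds 7 of the 10 members. Capitals mark matches to the GC box (GGGCGG, either strand) and the TATA box (TATAAA, either strand), which share no letters and so cannot overlap.
Egfr, chr11:16751953-16752252, plus strand: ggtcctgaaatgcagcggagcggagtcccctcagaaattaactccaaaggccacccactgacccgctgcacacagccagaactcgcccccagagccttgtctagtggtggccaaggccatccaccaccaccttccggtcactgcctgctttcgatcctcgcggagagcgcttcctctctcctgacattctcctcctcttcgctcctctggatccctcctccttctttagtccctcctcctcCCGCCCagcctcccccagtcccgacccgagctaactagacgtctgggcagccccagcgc
Erbb2, chr11:98412234-98412533, plus strand: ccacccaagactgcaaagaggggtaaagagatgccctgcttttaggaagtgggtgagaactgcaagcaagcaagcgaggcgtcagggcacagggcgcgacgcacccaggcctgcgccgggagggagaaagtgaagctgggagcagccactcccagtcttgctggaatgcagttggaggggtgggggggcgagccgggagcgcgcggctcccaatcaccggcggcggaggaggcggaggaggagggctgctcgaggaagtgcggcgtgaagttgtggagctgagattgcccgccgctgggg
Erbb4, chr1:69108010-69108309, minus strand: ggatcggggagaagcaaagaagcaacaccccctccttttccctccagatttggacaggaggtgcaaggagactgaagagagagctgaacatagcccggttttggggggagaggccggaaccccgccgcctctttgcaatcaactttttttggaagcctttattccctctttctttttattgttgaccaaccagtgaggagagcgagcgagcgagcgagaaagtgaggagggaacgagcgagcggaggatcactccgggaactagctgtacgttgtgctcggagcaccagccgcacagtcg

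Egfr had 1 GC box match, and Erbb2 and Erbb4 had 0. Of all 32851 windows listed there, 35.7% held a GC box match and 13.6% a TATA box match, and none of these 3 receptor windows held the latter. All of them were richer in CpG than the median window, with 15 CpG dinucleotides in Egfr, 21 in Erbb2 and 17 in Erbb4 against 7. Of the ligand windows, Tgfa had 24 CpG dinucleotides and 2 GC box matches, and Btc had 5 and 0. These are descriptions of the letters in the windows, and nothing about the use of the promoters was measured.

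Among the ligands, Btc, the gene of betacellulin, which binds EGFR and ERBB4, had signals of 994, 955 and 525 in replicates 3, 8 and 9. It was 2.52 and 2.38 times background in replicates 3 and 8 and 0.879 times in replicate 9, with a mean of 824 ± 260 (SD, n = 3). Its other probe set gave 82.9, 62.3 and 111, below background on every array. Btc was thus above background in 2 samples and just below it in replicate 9.

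Tgfa, the gene of TGF-alpha, an EGFR ligand, gave 571, 501 and 238 with its brightest probe set, a mean of 437 ± 175 (SD, n = 3). It was above background in replicates 3 and 8 and at 0.399 times background in replicate 9. Probe set 1421942_s_at was dimmer (154, 141 and 62.4) but also lowest in replicate 9, whereas 1450421_at gave 369, 317 and 387 with a range of 0.29 (log2). All 3 Tgfa probe sets are annotated to the same transcript sequence, and the last of them does not share the low value in replicate 9.

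Hbegf, the gene of heparin-binding EGF, which binds EGFR and ERBB4, gave 602, 870 and 515, a mean of 662 ± 185 (SD, n = 3). It was 1.53 and 2.17 times background in replicates 3 and 8 and 0.863 times in replicate 9. Its other probe set gave 156, 140 and 191, below background on every array, and there replicate 9 was highest and not lowest.

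Btc, Tgfa and Hbegf therefore all missed the call in replicate 9 alone. Their brightest probe sets were lowest in that replicate, also after quantile normalization and after centring, and the background there was also the highest of the 3 arrays. That background lay between 2 cerebellar reference genes, Grm4 (520) and Cbln1 (777). Without replicate 9, 6 of 9 members and 56.3% of all genes were above background, against 3 members and 51.9% with all replicates. The ratio of 3′ to 5′ control signal for Actb was 7.45, 6.50 and 4.0 in replicates 3, 8 and 9, and that for Gapdh 18.9, 15.1 and 16.4, so replicate 9 also differed in the reach of the labelled RNA for Actb. The part of this difference in the ligand signals was not tested.

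Egf, the gene that gives the family its name and is known for its expression in the distal tubule of the kidney, had 1 probe set with signals of 695, 336 and 308. Only replicate 3 was above background, at 1.76 times, and the mean was 446 ± 216 (SD, n = 3). Of 7 distal tubule markers none was above background on all 3 arrays and 6 were below it on every array, with Calb1 the exception. The summed signal of that list was 1970, 3446 and 1083, highest in replicate 8 and most of it from Calb1 (1375, 3126 and 542). The other 6 genes summed to 595, 320 and 541, and below background their order of the samples carries no information. The hepatocyte list had all 7 measured genes above background and a summed signal of 212306, 115524 and 163899, highest in replicate 3 as Egf was. The summed signals of the skeletal muscle, endothelial and epidermal lists were highest in replicate 3 as well, so this order is not particular to hepatocytes. The part of any of these tissues in the Egf signal was not tested.

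Nrg1, the gene of neuregulin 1, the ligand of ERBB3 and ERBB4 known from motor and sensory neurons, had 1 probe set with signals of 146, 434 and 303. It was above background in replicate 8 alone, at 1.08 times, and its range of 1.56 (log2) was the largest among the representative probe sets of the members. In replicates 3 and 9 Nrg1 was below background, so their order carries no information. Neuron markers, 5 of 8 above background, had summed signals of 5802, 14485 and 15259, with Stmn2 alone at 1425, 5676 and 6761. The part of neurons in the Nrg1 signal was not tested.

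**Figure D2:**
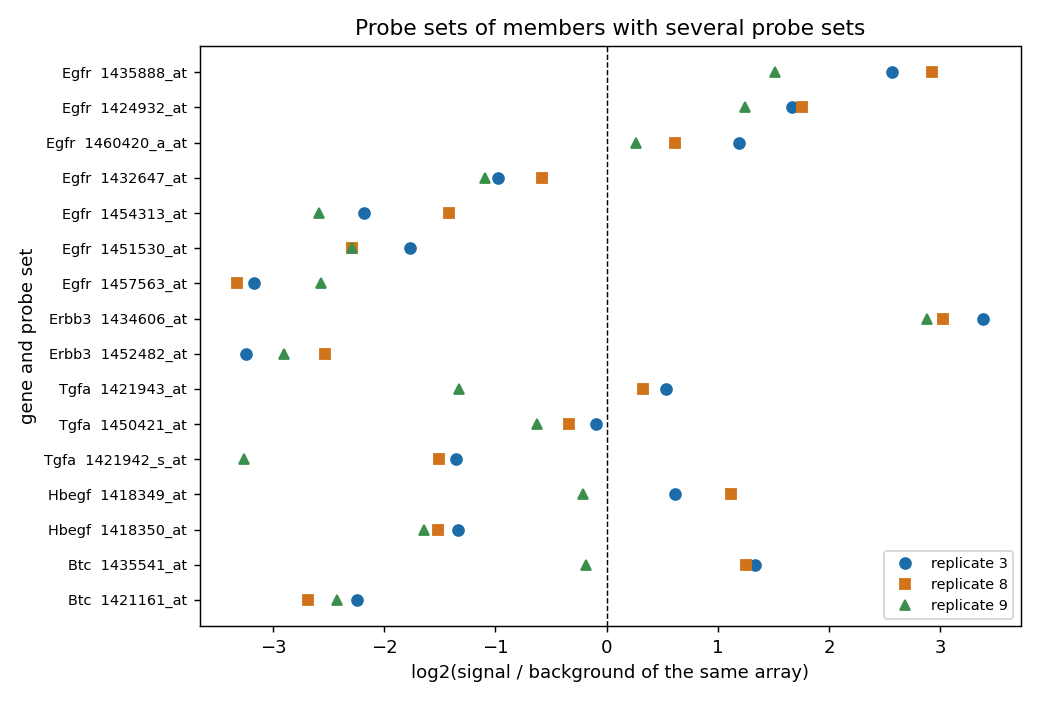
Log2 ratio of signal to the background of the same array for the probe sets of the 5 members that have several, in replicates 3, 8 and 9 (circles, squares and triangles). The dashed line is background. Each of these members has at least 1 probe set below background on every array, and only Egfr has more than 1 probe set above it.

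Over all 20 probe sets of the members, 5 were above background on every array (3 of Egfr, and 1 each of Erbb2 and Erbb3), 5 on 1 or 2 arrays, and 10 on none. Of all 34958 probe sets with 1 symbol, 40.3% were above background on every array. Among the 5 members with several probe sets, every probe set of Btc, Hbegf, Tgfa and Erbb3 other than the brightest was below background on every array.

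The rest of the pathway was taken from 7 lists of 74 genes, 67 of them measured. Of these 57 (85.1%) were above background, against 51.9% of all genes. Some of these calls rest on 1 of several probe sets, such as Braf (1 of 9) and Sos1 (1 of 5). With the mean of probe sets 42 were above background, as were 38.4% of all genes. The median of the lowest log2 ratio to background over the 3 arrays was 2.05 for these 67 genes, -0.21 for the 9 members and 0.20 for all genes. The lists hold many housekeeping signal transducers and were not tested against other genes.

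The family has further ligand genes. None of Ereg, Epgn, Nrg2, Nrg3 and Nrg4 was above background on any array. Nrg2 had signals of 350, 260 and 385, and Epgn 120, 144 and 200. Over both lists, none of 10 measured ligand genes was above background on all 3 arrays, against 51.9% of all genes. This count depends on the level set: with the 90th percentile Btc and Hbegf were above background, as were 58.1% of all genes.

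Genes that act in ligand release were above background for 9 of 10. Adam10 and Adam17, which encode the main sheddases of the EGF family precursors, had signals of 14726 ± 3227 and 3268 ± 247 (SD, n = 3, as for the levels that follow). Rhbdf1, the gene of an iRhom protein that guides ADAM17 to the surface, had 8087 ± 2378, whereas its relative Rhbdf2 was below background on every array (165 ± 105). Bace1, a protease gene known for the cleavage of neuregulin 1, had 3943, 3492 and 12993 in replicates 3, 8 and 9, with replicate 9 far above the other two, and Adam12 had 5021 ± 2797.

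Adaptor and exchange factor genes, whose proteins carry the signal from the receptor tails, were above background for 11 of 12. They included Crk (21001 ± 3339), Ptpn11, the gene of the phosphatase SHP2 (19186 ± 1230), Gab1 (13941 ± 1017) and Sos1, a RAS exchange factor gene (7445 ± 2213). Grb7, an adaptor gene that lies close to Erbb2, was above background in replicates 3 and 8 but not in 9 (605, 643 and 366). All 5 measured genes of the RAS-MAPK cascade were above background, among them the kinase genes Map2k1 (11414 ± 1949) and Braf (2739 ± 235) and the RAS gene Nras (8978 ± 1431). All 8 measured genes of the PI3K-AKT branch were above background as well, with Pik3ca, a catalytic subunit gene, at 10478 ± 2984, the regulatory subunit gene Pik3r1 at 4528 ± 435 and the kinase gene Akt1 at 4299 ± 665.

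Genes that restrain the receptors or steer their turnover were above background for 16 of 17. Errfi1, the gene of MIG6, which binds the kinase domains of EGFR and ERBB2, had a signal of 12886 ± 3340, and Eps15, an endocytic adaptor gene, 16202 ± 3401. Lrig1, which encodes a transmembrane inhibitor of the family, had 1517 ± 408, and Rnf41, the gene of a ubiquitin ligase for ERBB3, 2529 ± 999. The feedback genes Spred1 (7807 ± 2178) and Spred2 (7165 ± 936) were also above background, while Spry2 (607, 465 and 570) was below background in replicate 9 alone.

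Of 10 transcripts known to respond to ERK activity, 8 were above background. Ccnd1, the cyclin D1 gene, had a signal of 21853 ± 762, Egr1 8364 ± 1905, Ier2 4259 ± 252 and Myc 3343 ± 386. Etv4 (94.5 ± 58.3) and Fosl1 (86.6 ± 61.1) were below background on every array. Many other receptors act through ERK, and these levels do not show which of them was active.

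**Figure D3:**
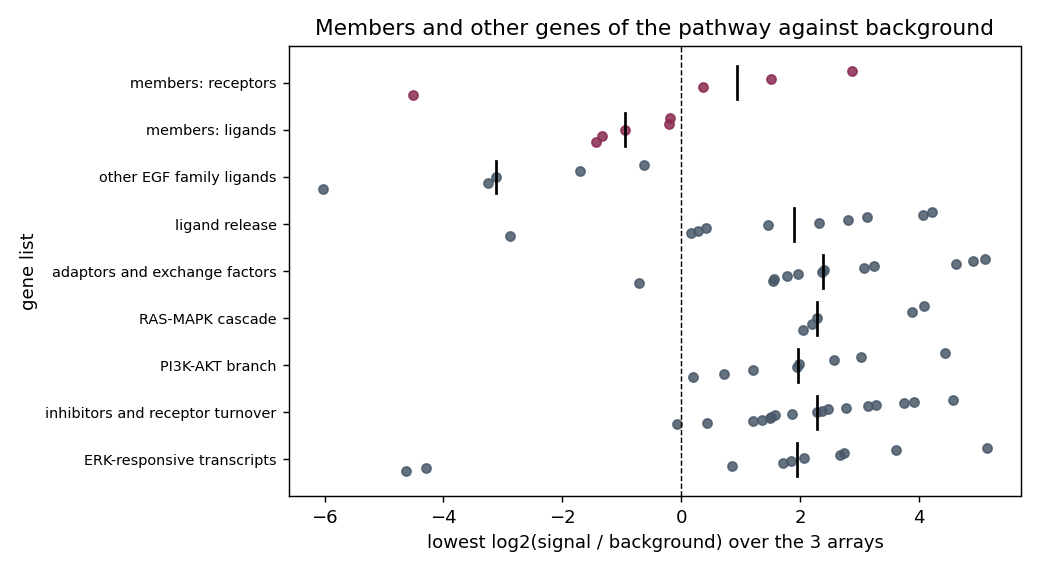
Lowest log2 ratio of signal to background over the 3 arrays for each measured gene of the members (upper 2 rows) and of the 7 pathway lists. Each point is a gene, the black bar is the median of the row and the dashed line is background. The 5 ligand genes among the members and the 5 further ligand genes lie left of the line, while 57 genes of the other 6 lists lie right of it.

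The arrays had median signals of 234, 198 and 273 in replicates 3, 8 and 9. In the smooth muscle list 4 of 8 genes were above background on all arrays, as were 51.9% of all genes. Of these the contractile gene Acta2 had signals of 32410, 27441 and 35287, whereas Tagln had a lowest log2 ratio to background of 0.04. Myh11, Cnn1, Myocd and Lmod1 were not above background on all arrays, with mean signals of 1244, 283, 662 and 220. Skeletal muscle genes (8 of 8 above background) and epidermal genes (5 of 8) also gave signal, as did macrophage genes (5 of 8) and endothelial genes (6 of 8). All 7 measured hepatocyte genes were above background, among them Alb, Afp and Ttr with mean signals of 43401, 45937 and 42763. The part of these tissues in the signals of the members was not tested.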

How the data were processed

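Total RNA of 3 ureter samples was extracted with a column kit, amplified in 2 rounds, labelled with biotin and hybridised to 1-colour arrays, per the labels' protocols. The deposited file holds a linear intensity for each probe set on each array, made with GCOS per the submitters' processing notes, with version and settings not given in those notes. The 2% trimmed mean was 1500 on each array, so the deposited signal had been scaled to a common mean, and no quantile normalization had been applied. Amplification starts at the 3′ end, so probe sets far from it can be dim for an expressed gene.

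Of 45101 probe sets, 34958 had 1 symbol in the platform annotation, 932 had more than 1 and 9211 had no name here. Those with exactly 1 symbol were used. Each gene took the values of whichever of its probe sets had the highest mean log2(signal + 1), and ratios were taken on the linear signal. Of 60 reference genes 55 were measured, and 2 of them (Cela1 and Tff1) were themselves above background. The members, the lists and the reference genes were chosen with earlier results of these data known. Of each pathway list, up to 4 genes above background, taken from the highest mean down, were to be named, and those not above background. Adam17, Lrig1 and Rnf41 fall outside that rule and were named for their role after their values were seen. No genes of like pattern were sought, since 3 samples are too few. Precision is limited by there being 3 arrays. The planned description of member proteins was not made. The call was checked on simulated data only for genes set clearly above or clearly below background, so the check does not cover signals near background. Analyses used Python 3.11.15, numpy 2.4.6, pandas 2.3.3 and scipy 1.17.1. Alternatives were quantile normalization, other percentiles (90 and 99), presence on 2 arrays, the mean of probe sets, no probe sets ending in _x_at or _s_at, other reference genes, the array median as background, pseudocounts of 16 and 64, centring, and leaving out each replicate.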

Additional observations from a re-analysis of the deposited data

How the results depend on the processing

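The number of members above background (3 of 9) depended on where background was set. It was 5 with the 90th percentile of the reference genes (58.1% of all genes), 5 without the exocrine pancreas genes among them (55.3%), 6 with presence on at least 2 arrays (57.4%), 6 with the array median as background (61.9%), and 5 without Cela1 and Tff1 (56.2%), an alternative chosen after seeing the data. It was 2 with the 99th percentile (41.4%) and 2 with the mean of probe sets (38.4%). It ranged from 3 to 6 when 1 replicate was left out, the 6 being without replicate 9 (56.3%). The 5 probe sets above background became 8 with the 90th percentile, 3 with the 99th, 8 on at least 2 arrays and 9 with the array median, and ranged from 5 to 8 without 1 replicate, again highest without replicate 9. The count of 57 pathway genes ranged from 42, with the mean of probe sets, to 60.

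The lowest log2 ratio to background changed sign in 17 of 108 recomputations over the members. For Btc it became 0.48 with the 90th percentile, 1.25 on at least 2 arrays and also without replicate 9, 0.15 without exocrine pancreas genes, 0.94 with the array median and 0.23 without Cela1 and Tff1. For Hbegf the values in the same order were 0.45, 0.61 (also without replicate 9), 0.12, 0.91 and 0.20. For Tgfa it became 0.32 on at least 2 arrays and without replicate 9, and for Egf 0.17 with the array median. Over the 3 fits that left out 1 replicate, the lowest values were -0.19 for Btc, -0.21 for Hbegf and -0.62 for Tgfa, the last from probe set 1450421_at, which was then the brightest. Erbb2 fell below background with the 99th percentile (-1.12) and Egfr with the mean of its probe sets (-0.68). Erbb3 stayed above, by 0.10 with the mean of probe sets against 2.88 with its brightest, and Erbb4 and Nrg1 below, in each alternative run. The cause of these changes lies in the level set as background, the arrays counted and the probe sets averaged. The range over the samples moved by more than 1 SD in 15 of 72 recomputations. With 3 arrays and no detection calls, signals near background cannot be called present or absent.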
